A study of Mus musculus with 2 samples.

Results

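Interleukins are secreted signalling proteins, and their receptors are surface chains that couple mostly to Janus kinases or, for the IL-1 and IL-17 families, to adaptor proteins. Many receptors are built from a private chain that binds 1 ligand and a chain shared by several ligands, such as the common gamma chain (Il2rg) and gp130 (Il6st). Most interleukins are made by activated lymphoid, myeloid or epithelial cells, while stem and progenitor cells of the bone marrow carry several of the receptors. The genes described here were all protein-coding genes whose symbol is Il followed by a digit, found by symbol in the RefSeq annotation of mouse build GRCm38 (mm10). There were 83 such genes of 21883 protein-coding genes on chromosomes 1 to 19, X and Y. They were divided into 39 ligands (antagonists such as Il1rn included), 41 receptor chains (decoys included) and 3 others, which are Il18bp, a soluble binding protein, and Il4i1 and Il4i1b, overlapping models of an amino acid oxidase.

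ATAC-seq, which reads out open DNA from where a transposase can insert adapters, was run on hematopoietic stem cells sorted as CD48-CD150+LSK from bone marrow of wild-type C57BL/6J mice. Both groups had been transduced with a retrovirus: the control group with pMSCV, the vector alone, and the H1C group with MSCV-H1C, labelled as overexpressing the linker histone H1C. Linker histones bind nucleosomes where DNA enters and leaves. Each group held 1 library of about 1000 cells, so the values compare 2 libraries, and no test between the conditions was possible. The sources used here give neither the age of the mice nor the number of animals pooled.

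The control list held 31843 accessible regions on these chromosomes and the H1C list 13012. Each region is 1 row of a deposited list with its own fold, the summit pileup over the local background. The pileup (reads or fragments stacked at the summit) was solved from the fold and the p-value, and the genome background of the libraries was 3.99 (control) and 4.40 (H1C), a ratio of 1.10 used below to scale for depth. A gene-end region reached within 1000 bp of either end of a gene, and a distal region lay in the gene body or within 50 kb of it but not at an end. The stem cell markers Kit, Ly6a, Slamf1, Hlf and Meis1 had a gene-end region in control and none in H1C, while Procr and Mecom had none in either. Those control regions were weak, with pileups of 24, 28, 18, 20 and 24. Of all genes with a control gene-end pileup of 30 or less, only 18.9% were also called in H1C. Gene-end regions were also present in control at 4 of 5 lymphoid (2 of them, Cd3d and Cd79a, also in H1C), 1 of 5 myeloid, 0 of 2 erythroid, 0 of 2 mast cell and 2 of 3 non-hematopoietic markers. Over all protein-coding genes the share was 46.9%. The control pileups of Cd3d and Cd79a were 69 and 63. An accessible gene end marks permissive chromatin and not expression, and in bulk cells a lower share of cells with open DNA and less openness per cell cannot be told apart.

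The 8 sequences below lie just before the start of members called in both libraries (Il6st, Il4ra), in control only (Il6ra, Il2rg, Il7r, Il18rap) or in neither (Il4, Il6), and they show how unequal the CpG content of these gene starts is. They come from RefSeq, build GRCm38, and are written 5′ to 3′ on the strand of the gene, with each CpG dinucleotide in capitals. Each holds 250 bases except that of Il7r, which was shortened to the 185 bases outside the annotated gene.
Il6st: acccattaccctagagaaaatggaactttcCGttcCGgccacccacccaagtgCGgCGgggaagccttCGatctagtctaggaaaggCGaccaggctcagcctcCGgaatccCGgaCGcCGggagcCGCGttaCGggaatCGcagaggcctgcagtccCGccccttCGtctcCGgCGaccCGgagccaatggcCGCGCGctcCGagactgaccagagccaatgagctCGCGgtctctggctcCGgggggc
Il4ra: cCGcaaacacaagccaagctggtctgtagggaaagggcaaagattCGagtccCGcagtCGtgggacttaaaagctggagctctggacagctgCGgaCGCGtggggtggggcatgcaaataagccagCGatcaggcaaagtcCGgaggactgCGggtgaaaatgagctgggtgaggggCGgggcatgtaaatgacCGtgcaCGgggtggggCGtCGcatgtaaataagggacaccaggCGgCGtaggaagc
Il6ra: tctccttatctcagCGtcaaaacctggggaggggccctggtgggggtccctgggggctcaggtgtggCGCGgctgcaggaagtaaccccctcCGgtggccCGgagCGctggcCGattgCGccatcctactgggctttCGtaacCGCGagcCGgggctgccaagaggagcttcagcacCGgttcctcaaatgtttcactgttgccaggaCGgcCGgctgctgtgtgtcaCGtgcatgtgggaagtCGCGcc
Il2rg: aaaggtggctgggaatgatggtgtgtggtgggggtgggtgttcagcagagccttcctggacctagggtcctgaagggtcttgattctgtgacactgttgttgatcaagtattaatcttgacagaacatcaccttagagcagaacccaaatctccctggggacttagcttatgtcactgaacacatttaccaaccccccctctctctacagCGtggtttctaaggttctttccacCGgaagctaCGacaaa
Il7r: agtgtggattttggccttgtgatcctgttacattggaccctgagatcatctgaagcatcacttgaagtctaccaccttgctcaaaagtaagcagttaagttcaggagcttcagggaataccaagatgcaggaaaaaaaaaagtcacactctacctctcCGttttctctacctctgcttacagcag
Il18rap: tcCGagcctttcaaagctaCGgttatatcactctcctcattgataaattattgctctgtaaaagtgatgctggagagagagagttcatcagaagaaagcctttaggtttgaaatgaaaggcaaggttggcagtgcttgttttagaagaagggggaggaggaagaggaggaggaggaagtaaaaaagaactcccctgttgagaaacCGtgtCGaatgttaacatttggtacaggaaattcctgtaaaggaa
Il4: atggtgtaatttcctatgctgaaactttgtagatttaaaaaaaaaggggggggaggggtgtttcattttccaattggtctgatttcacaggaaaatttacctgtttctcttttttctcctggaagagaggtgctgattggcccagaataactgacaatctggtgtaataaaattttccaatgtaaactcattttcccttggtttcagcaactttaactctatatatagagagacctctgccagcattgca
Il6: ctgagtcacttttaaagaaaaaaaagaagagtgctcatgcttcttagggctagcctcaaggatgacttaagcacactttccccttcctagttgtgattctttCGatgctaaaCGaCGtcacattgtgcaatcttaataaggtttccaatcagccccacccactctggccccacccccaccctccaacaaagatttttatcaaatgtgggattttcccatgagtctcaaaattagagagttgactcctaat

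These windows are, in the order printed, chr13:112463820-112464069 (plus strand), chr7:125552021-125552270 (plus), chr3:89913197-89913446 (minus), chrX:101268256-101268505 (minus), chr15:9529942-9530126 (minus), chr1:40515112-40515361 (plus), chr11:53618666-53618915 (minus) and chr5:30012864-30013113 (plus). The number of CpG dinucleotides was 26 for Il6st, 17 for Il4ra, 18 for Il6ra, 3 for Il2rg, 1 for Il7r, 4 for Il18rap, 0 for Il4 and 3 for Il6.

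Ligand genes were mostly closed at their ends in control stem cells, and receptor genes were open about as often as genes in general. A control gene-end region was present at 5 of 39 ligands (12.8%, exact Clopper-Pearson 95% interval 4.30 to 27.4) and at 21 of 41 receptors (51.2%, 35.1 to 67.1), against 46.9% of all protein-coding genes. In the H1C library a gene-end region was present at 1 ligand and 7 receptors (17.1%), against 33.6% of all genes. Among ligands 4 were called in control only, 1 in both and 34 in neither. Among receptors 14 were called in control only, 7 in both and 20 in neither. The control-only receptors Il1rl1 and Il18r1 shared their strongest region, which the counts and intervals over genes take once for each. The background was 13.6% of all genes in control only, 33.3% in both and 0.288% in H1C only, and no member was called in H1C only. All intervals here and below cover counting error only, since amplified fragments are not independent molecules and each group held 1 library.

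Chemokine genes showed the same pattern and TNF superfamily genes, both taken by symbol, did not. The TNF sets held genes whose symbol is Tnfsf (ligands) or Tnfrsf (receptors) followed by a digit, so members under other symbols were not counted. Chemokine ligands had a control gene-end region at 8 of 39 genes (20.5%) and chemokine receptors at 9 of 19 (47.4%). Ligands of the TNF superfamily had one at 6 of 11 genes (54.5%) and TNF receptors at 10 of 20 (50.0%), so the gap between ligands and receptors was not present among these genes. The share in control only was above that of all genes in 3 of these sets too, at 45.5% of TNF ligands, 35% of TNF receptors and 21.1% of chemokine receptors, and 10.3% of chemokine ligands. Of the genes open in control, 1 of 6 TNF ligands, 3 of 10 TNF receptors, 4 of 8 chemokine ligands and 5 of 9 chemokine receptors were also called in H1C. Genes are not replicates, so these shares are descriptions and the differences were not tested.

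**Figure D1:**
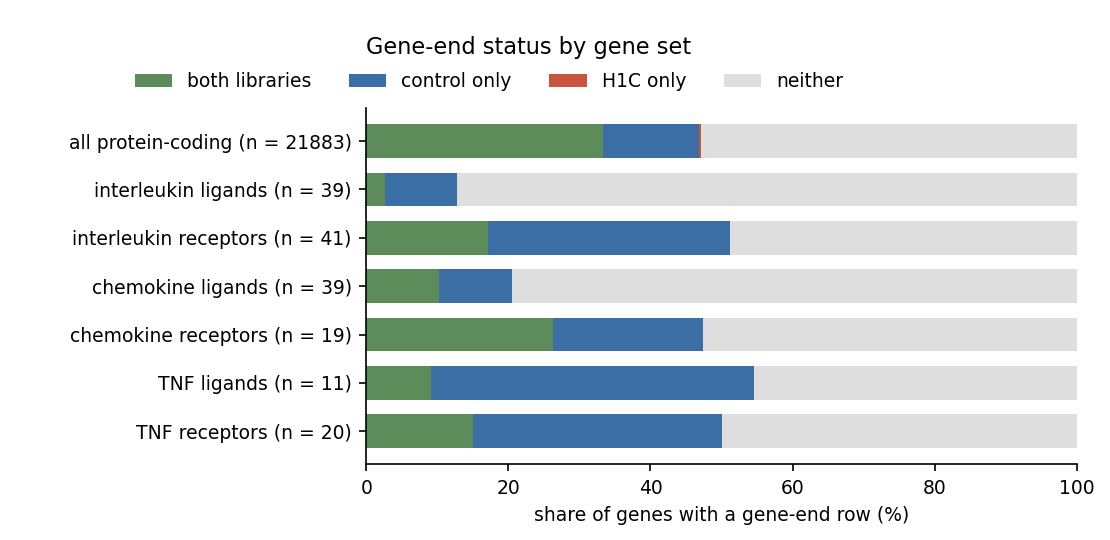
Bars give the share of genes (percent of each set, number of genes in parentheses) with a gene-end region in both libraries, control only, H1C only or neither. Interleukin ligands have the largest share with no gene-end region in either library of the 7 sets drawn (87.2%), and interleukin receptors a larger share in control only (34.1%) than all protein-coding genes (13.6%), as have TNF ligands (45.5%), TNF receptors (35%) and chemokine receptors (21.1%).

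Of the 28 members open at an end in control, 10 were also called in H1C, against 71.0% of the 10261 genes open at an end in control. The share was 35.7% (95% interval 18.6 to 55.9) over all members and 33.3% (14.6 to 57.0) over receptors. None of the 18 control-only members had a control gene-end region that any H1C region overlapped, inside or outside the gene-end window. Over all genes 49 of 2976 control-only genes had such an overlap. Member regions were weak, with a median strongest pileup of 34, against 49 over all genes with a control gene-end region. Bands of pileup, set after the values had been seen, take part of this into account. At a control pileup of 30 or less, 0 of 8 members were called in H1C, against 18.9% of all genes. These 8 include Il1rl1 and Il18r1, whose strongest region was the same. From 31 to 40 the count was 3 of 12 (25%, 5.49 to 57.2), against 51.6%. Above 40 it was 7 of 8 (87.5%, 47.3 to 99.7), against 92.9%. At the shares of all genes in these bands, 15.1 members would have been called in H1C, where 10 were.

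**Figure D2:**
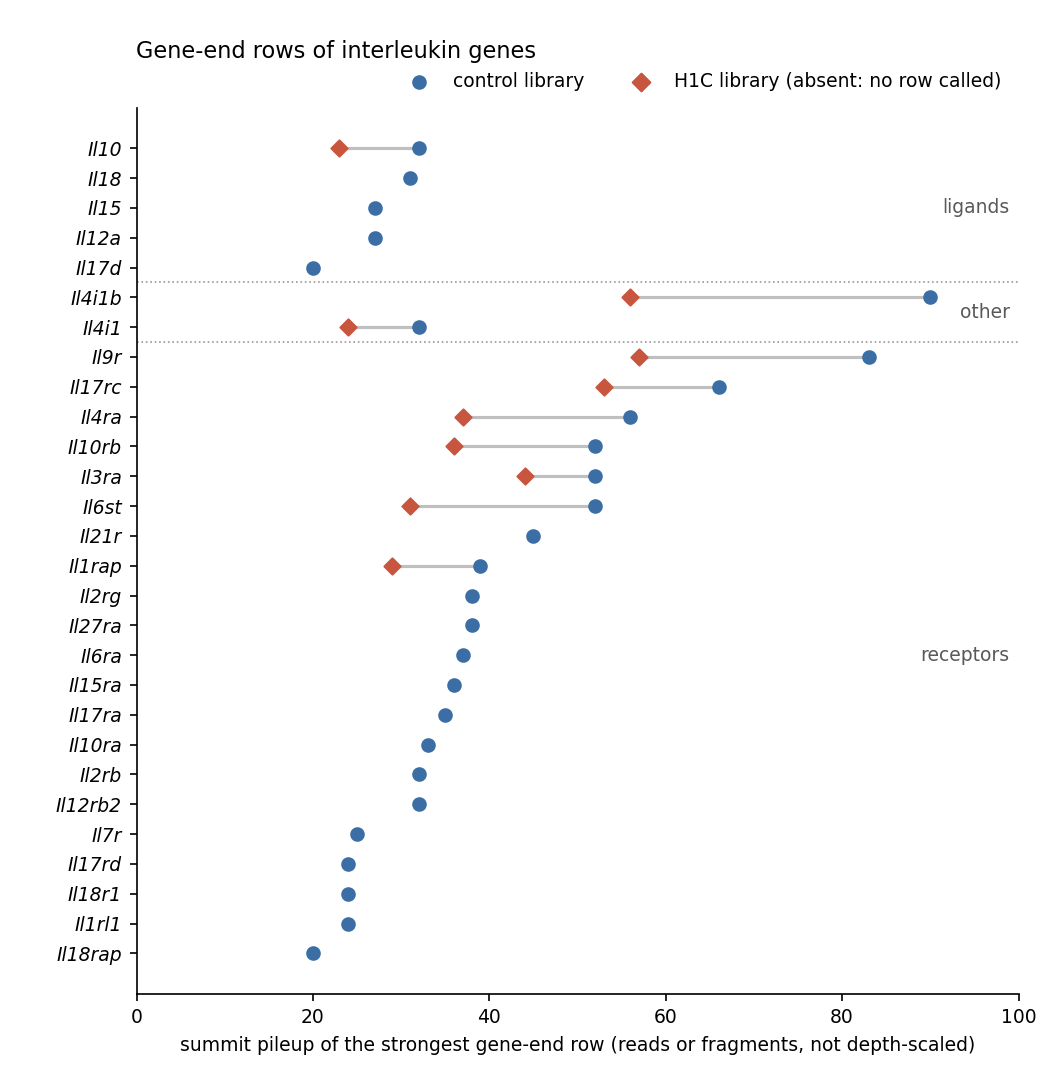
Points give the summit pileup of the strongest gene-end region of each of the 28 members with one, in control (circles) and H1C (diamonds), on an axis not scaled for depth; a missing diamond means that no region was called. Members called in both libraries have control pileups of 32 to 90, and those called in control only have 20 to 45.

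The shared signalling chains were split between the libraries. Il6st, which encodes gp130, the chain used by IL-6, IL-11 and related cytokines (chromosome 13, 112464070 to 112506860), had a region at its start with a summit -13 bp from the listed start (negative values lie upstream). Its pileups were 52 (control) and 31 (H1C), with folds of 7.55 and 5.92. After scaling for depth, the log2 of H1C over control was -0.89 (exact conditional binomial 95% interval -1.58 to -0.22). Il1rap, the accessory chain of the IL-1, IL-33 and IL-36 receptors (chromosome 16, 26581509 to 26730128), had pileups of 39 and 29 at its start, with a log2 ratio of -0.57 (-1.32 to 0.16). Il10rb, the chain shared by IL-10 and IL-22 receptors, had 52 in control and 36 in H1C (log2 ratio -0.67, -1.33 to -0.03) in a region that also lay at an end of Ifnar2. In contrast to these, the common gamma chain gene Il2rg (chromosome X, 101264385 to 101268255) had a pileup of 38 in control and no gene-end region in H1C. Its control summit lay at -28 bp, with a fold of 6.35. Il17ra, the chain common to IL-17 receptors, had 35 in control and no gene-end region in H1C.

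Among private chains, those of IL-3 and IL-4 were called in both libraries. Il3ra, the IL-3 receptor alpha chain, had pileups of 52 and 44, the smallest difference among the 10 shared gene-end regions, with a log2 ratio of -0.38 (-0.996 to 0.22). Its control region was 883 bp wide and its H1C region 284 bp. The control summit lay at -778 bp from the listed start and 195 bp from the nearer end of the annotated gene. Il4ra, the chain that binds IL-4 and also serves IL-13, had 56 in control and 37 in H1C (log2 ratio -0.74, -1.38 to -0.12), with both summits at -65 bp. The remaining shared receptor regions also lay at the ends of neighbouring genes. Il9r had pileups of 83 and 57 in a region that also lay at an end of Snrnp25. The control summit was 100 bp from the end of Il9r with the higher coordinate, where this gene of the minus strand begins. It lay at -5104 bp from the listed Il9r start, which is inside the annotated gene. Il17rc had 66 and 53 in a region that also lay at an end of Creld1, away from its own start. The oxidase model Il4i1b had 90 and 56 in a region that also lay at ends of Atf5 and Nup62. The other oxidase model, Il4i1, had 32 and 24 (log2 ratio -0.56, -1.38 to 0.25), with a control summit at -747 bp. In all, 3 of the 7 shared receptors had their strongest control region at an end of another gene. Of the 14 control-only receptors, 3 did, among them Il1rl1 and Il18r1, which were counted through the same region. Of the 15 receptors with no such neighbour, 4 were called in both libraries (26.7%, 7.79 to 55.1), against 67.0% of all genes whose strongest control region was at no other gene's end.

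The common gamma chain family held 5 of the 14 control-only receptors, Il2rg among them. Il7r, the alpha chain of the receptor for the lymphoid growth factor IL-7 (chromosome 15, 9506159 to 9529941), had a control pileup of 25 with a summit at 4 bp from the start, and no H1C region anywhere in its window of gene and flanks. Il2rb, the beta chain used by IL-2 and IL-15, had 32 in control, and Il15ra, the IL-15 alpha chain, had 36. Il21r, the IL-21 chain, had 45, the highest pileup of any control-only member. Of the 8 receptors of the common gamma chain family, 7 had a control gene-end region, and 2 of those (Il4ra and Il9r) were called in both libraries. The remaining gene of the family, Il2ra, had no gene-end region in either list and 8 distal control regions.

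The gp130, IL-12 and IL-10 families had further control-only receptors. Il6ra, the IL-6 alpha chain, had a pileup of 37 at -21 bp and a second region of 30 at its far end. Il27ra, the IL-27 chain, had 38 in a region shared with an end of Rln3. Il12rb2, the signalling chain of the IL-12 receptor, had 32 with a fold of 6.61, the highest fold of any control-only member. Il10ra, the ligand-binding chain of the IL-10 receptor, had 33 and 26 in its pair of regions.

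Control-only regions of the IL-1 receptor family and of Il17rd were weaker. Il18r1 and Il18rap, which together form the IL-18 receptor, had 24 and 20 at their starts. The region of Il18r1 also reached the far end of Il1rl1, which encodes the IL-33 receptor ST2 and had no other gene-end region. Il17rd, an IL-17 receptor family member that restrains growth factor signalling, had 24. None of these 4 genes had a gene-end region in H1C.

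Ligands with a gene-end region were few, and all had low pileups. Il10, an anti-inflammatory cytokine, was called in both libraries with pileups of 32 and 23 (log2 ratio -0.62, -1.46 to 0.20), in a region beyond the end of the gene with the higher coordinate, from 131025819 to 131026233 on chromosome 1. Il18, an inflammasome-processed cytokine, had 31 in control only, in a region that also lay at an end of Bco2. Il12a, which encodes a subunit of IL-12, and Il15, a growth factor for natural killer cells, each had 27, and Il17d had 20. No gene-end region was called in either library at the hematopoietic growth factor genes Il3, Il5, Il6, Il7 and Il11, nor at the T cell cytokine genes Il2, Il4, Il13, Il17a, Il21 and Il22.

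At the 10 shared gene-end regions the H1C pileup was lower in each, with a median log2 ratio, scaled for depth, of -0.65 (quartiles -0.73 and -0.56). With the genome background as the scale, the interval lay below 0 for 5 of them and included 0 for the other 5. Over all 6382 shared gene-end regions of the genome the median was -0.84 (quartiles -1.04 and -0.65). Over all 92 shared regions at members, distal ones included, the median was -0.74 and 89 lay below 0, against -0.79 for all 10874 shared regions. With the local rather than the genome background as the scale (a ratio of 0.889 in place of 1.10), the median over the 92 was -0.43. Every log2 ratio and interval bound is higher on that scale. The count of intervals below 0 therefore holds for the genome background only. A region enters such a ratio only where it was called in both lists.

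**Figure D3:**
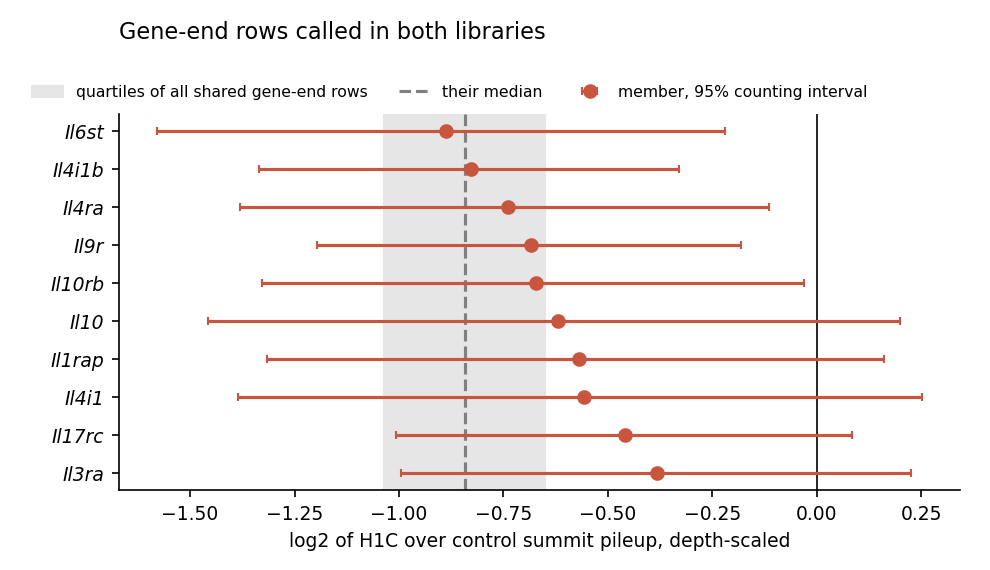
Points give the log2 of H1C over control summit pileup, scaled for depth, at the 10 gene-end regions called in both libraries, with exact 95% counting intervals; the grey band and dashed line give the quartiles (-1.04 and -0.65) and median (-0.84) of all shared gene-end regions. The members run from -0.89 at Il6st to -0.38 at Il3ra, and all lie left of 0.

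In the control list, the deposited values set the member regions below the average gene end. In the H1C list, which held gene-end regions of only 7 receptors, these were near it in fold and above it in pileup and −log10 q. The median fold (column 7) of control gene-end regions was 4.84 over 5 at ligands (quartiles 3.85 and 4.98) and 4.68 over 24 at receptors (4.22 and 6.12), against 6.25 over all 10144 gene-end regions. The median −log10 p (column 8) was 12.5 at ligands and 13.8 at receptors, against 23.0, and the median −log10 q (column 9) was 9.52 and 10.8, against 19.7. In the H1C list the 7 receptor regions had a median fold of 5.08, pileup of 37 and −log10 q of 13.0, against 5.11, 34 and 11.8 for all H1C gene ends. Summits (column 10) lay near the middle of a region everywhere, at a median of 51.1% of its width at ligands and 53.1% at receptors, against 49.0% at all control gene ends. Median widths were 423 bp at ligands and 458 bp at receptors, against 497 bp.

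Many control-only receptor regions lay close to a listed start, but this count depends on the table of starts. Of the 14 control-only receptors, 9 had their strongest summit within 100 bp of a listed start (Il2rg, Il7r, Il18rap, Il18r1, Il6ra, Il12rb2, Il21r, Il15ra and Il17rd). Of the 7 receptors called in both, 3 did (Il6st, Il1rap and Il4ra). Further receptors had a summit close to an end of the annotated gene, which this count leaves out. These were Il10rb (84 bp) and Il9r (100 bp), called in both, and Il10ra (31 bp) and Il17ra (7 bp), called in control only. The difference between the groups was not tested. For 5 of these 21 receptors no start was listed in the table of promoter sequences, which held 66 of the 83 members. Il10ra, Il10rb, Il12rb1, Il17ra, Il22ra2, Il27ra and Il2rb among receptors and Il10, Il15, Il17b, Il1f6, Il23a, Il24, Il25, Il27, Il34 and Il7 among ligands had no entry.

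Ligand starts were poor in CpG, and the receptors called in both libraries included the richest. Over the 250 bases before the most upstream listed start, ligands had a median of 2 CpG dinucleotides (29 genes, quartiles 1 and 3) and receptors 4 (34 genes, quartiles 3 and 13), against 10 over 17491 protein-coding genes. Among receptors the median was 21.5 for the 6 called in both, 3.5 for the 10 called in control only and 4 for the 18 called in neither. Il1rap had 30, Il3ra 27 and Il6st 26, whereas Il9r had 5 and Il17rc 4, both of which had their shared region also at an end of a neighbouring gene. The Il9r and Il3ra bases were counted before listed starts that lie inside the annotated genes. From these starts the control summits lay at -5104 bp (Il9r) and -778 bp (Il3ra). Il6ra, with 18, was the control-only receptor with the most CpG, and Il17rb, the IL-25 receptor gene, had 27 without a gene-end region in either library.

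Over the genome the genes called in both libraries also had the most CpG, with a median of 18 dinucleotides, but those in control only (12) stood above those in neither (3), which was not so among receptors. At a control pileup of 31 to 40, 57.5% of genes with 10 or more CpG dinucleotides were called in H1C (95% interval 54.2 to 60.7), against 39.9% of those with fewer (34.9 to 45.1). Above 40 the shares were 94.3% and 87.0%. With fewer than 10 CpG dinucleotides, a control gene-end region was present at 9 of 23 receptors (39.1%) and 2 of 28 ligands (7.14%), against 21.4% of all such genes. With 10 or more, it was present at 7 of 11 receptors (63.6%) and at the 1 ligand, against 73.5% of all such genes. The bound of 10 was set after the values had been seen.

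**Figure D4:**
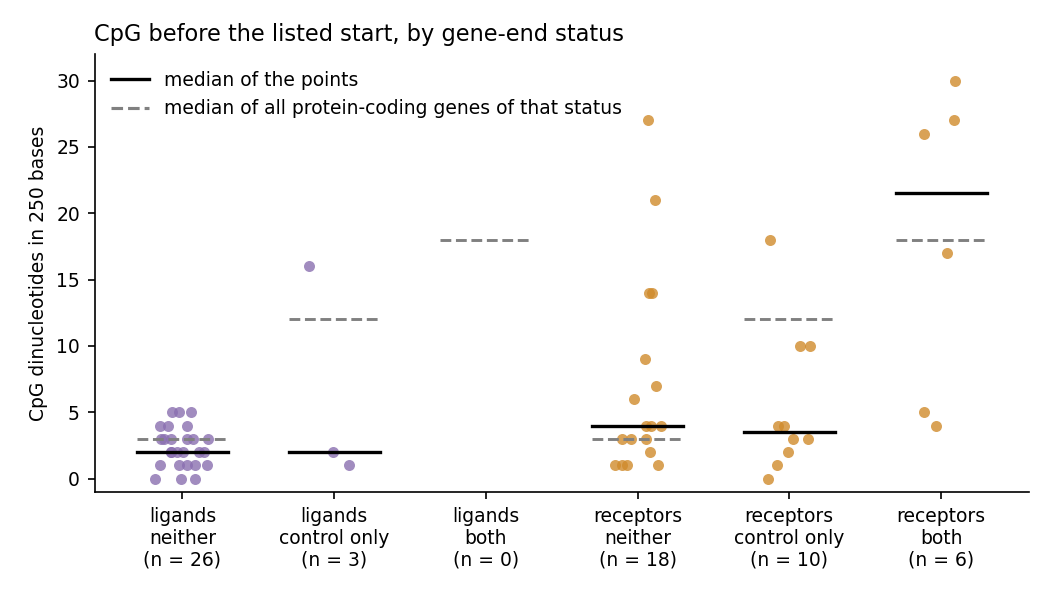
Each point is a member, plotted by the number of CpG dinucleotides in the 250 bases before its most upstream listed start and by the library in which it had a gene-end region; solid lines are medians of the points and dashed lines medians of all protein-coding genes of that status. Ligands in neither library lie at 5 or below, and receptors called in both libraries run from 4 to 30.

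Short sequence motifs were searched on both strands of the same 250 bases, and differences between ligands and receptors were not tested. The TATA sequence TATAAA was present at 10 of 29 ligands (34.5%) and 2 of 34 receptors (5.88%), against 12.4% of all protein-coding starts. The GC box GGGCGG was present at 2 ligands (6.90%) and 11 receptors (32.4%), against 42.7%. The ETS-type sequence AGGAAG was found at 8 ligands (27.6%) and 14 receptors (41.2%), against 28.2%, and the RUNX-type sequence TGTGGT at 8 ligands (27.6%) and 4 receptors (11.8%), against 12.4%. The STAT-type sequence TTCNNNGAA was found at 2 ligands (6.90%) and 4 receptors (11.8%), against 6.65%. The searched motifs are not contained in one another, and a match is a description of the letters and not a binding site.

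Distal regions were present around most members of both classes. The median number of control regions per window, gene-end regions included, was 3 for ligands and 4 for receptors, against 3 for all protein-coding genes. The receptor windows include the long genes Il1rapl1 (1375012 bp) and Il1rapl2 (1278324 bp), with 1 and 0 distal control regions. Counting each region once, windows of ligands held 100 distal control regions in 3.72 Mb (26.9 per Mb) and windows of receptors 135 in 7.44 Mb (18.1 per Mb). Of these, 34 at ligands and 31 at receptors lay at ends of other genes, some of them cytokine receptor or signalling genes such as Ifnar2 and Stat2. Away from all gene ends, H1C regions overlapped 10 of 66 control regions at ligands (15.2%, 7.51 to 26.1) and 26 of 104 at receptors (25%, 17.0 to 34.4), against 20.7% of all 21699 control regions at no gene end. Their intervals overlapped. At ends of neighbouring genes the counts were 24 of 34 (70.6%) and 19 of 31 (61.3%), against 62.9% of all gene-end regions. The median fold of all distal control regions was 4.57 at ligands and 4.27 at receptors.

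Il16, made from a large PDZ-domain precursor, led the ligands with 8 distal control regions, 6 of them inside the gene, and 2 were overlapped in H1C. Those 2, of which 1 lay at an end of Stard5, had control pileups of 52 and 55 and H1C pileups of 28 and 31, and the other 6 had at most 37. Around Il1b, the main inflammatory IL-1 gene, 7 distal regions lay at no gene end, and 1, some 4226 bp from the gene, was overlapped, with pileups of 28 and 20. The strongest region near Il1b, with a pileup of 41 and a summit 2363 bp away, was called in control only. Il18, Il17c and Il23a, which encodes the private subunit of IL-23, each had 7 distal regions, of which 3 were shared. All 3 shared regions lay at ends of neighbouring genes in each case, among them the region at Stat2 and Apof near Il23a (pileups of 88 and 48).

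Il10rb, Il21r and Il4ra led the receptors with 10 distal control regions each, and Il6ra and Il6st followed with 9. Il4ra and Il21r are neighbours on chromosome 7 and shared several of them. The strongest of these, at 125588690 to 125589117, had pileups of 67 and 36 (log2 ratio -1.04, -1.66 to -0.43). Inside Il21r a region from 125630245 had 62 and 32 (log2 ratio -1.10, -1.76 to -0.46), although the start of the gene was called in control only. Il6st had 1 of its 9 distal regions called in H1C, with pileups of 24 and 21, although its start was called in both. A region 39132 bp from Il10rb, at chromosome 16, 91464708 to 91465212, had pileups of 69 and 22. Its log2 ratio of -1.79 (-2.55 to -1.08) was the lowest of the 92 shared member regions. The 3 distal regions of Il2rg, at the ends of Snx12, Foxo4 and Med12, were all shared, and the 3 of Il7r, with pileups of 19 to 27, were all in control only.

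**Figure D5:**
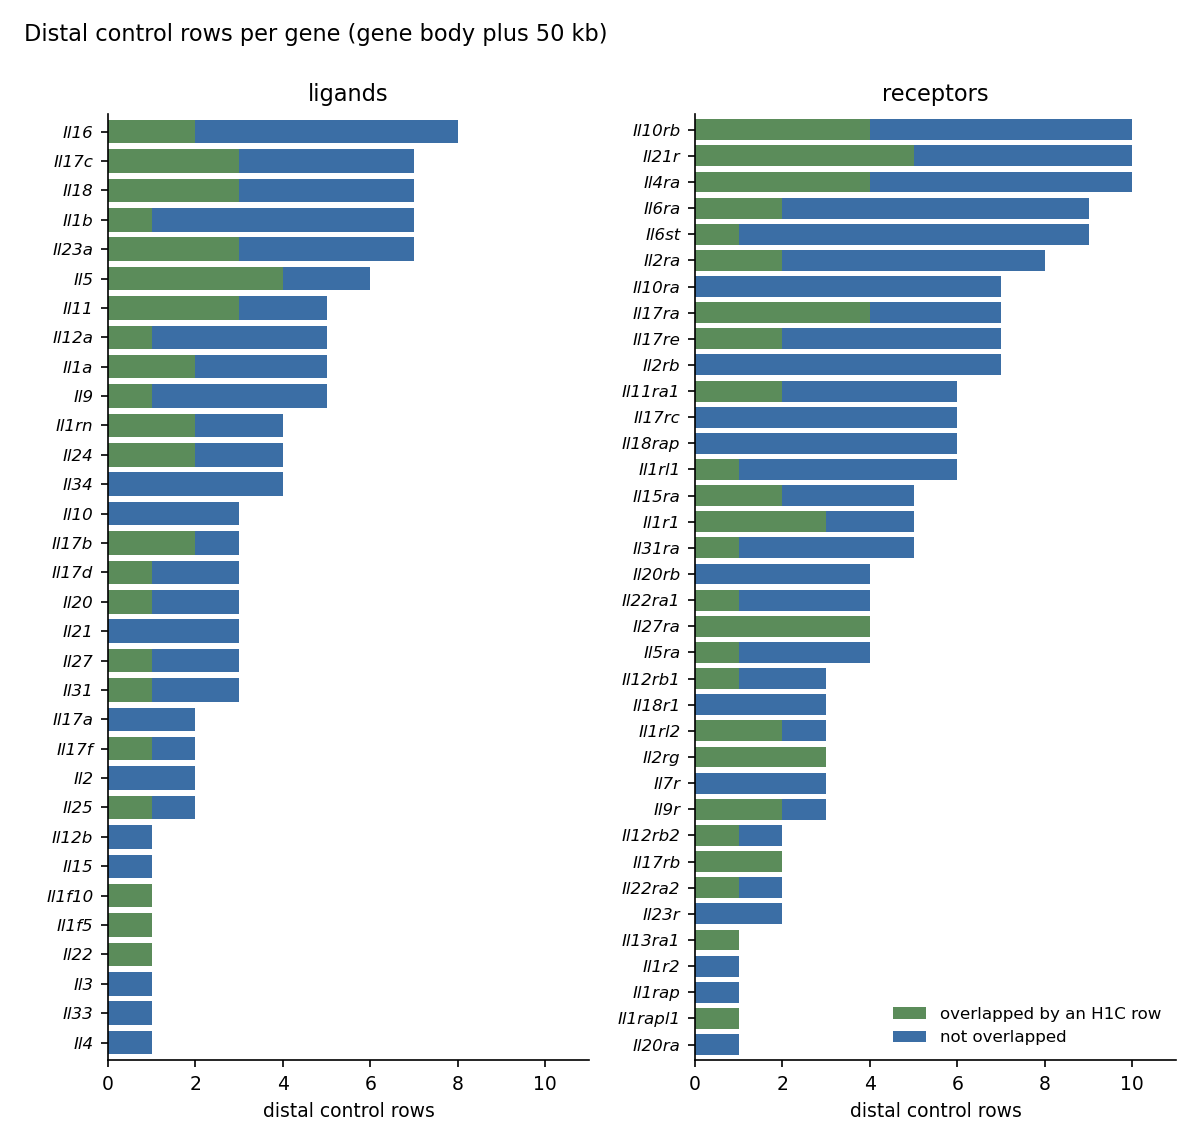
Bars give, for each ligand and receptor with at least 1, the number of distal control regions in the gene body and 50 kb flanks, divided into those overlapped by an H1C region and those not; neighbouring genes can share regions. Ligands reach 8 (Il16) and receptors 10 (Il10rb, Il21r and Il4ra), and none of the distal regions of Il10ra, Il2rb or Il7r was overlapped.

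Clustered members shared windows, with 39 of the 83 genes in 14 groups of neighbours. The IL-1 receptor cluster on chromosome 1 (Il1r2, Il1r1, Il1rl2, Il1rl1, Il18r1 and Il18rap) held 14 control and 4 H1C regions, with 3 control and 0 H1C gene-end regions. The IL-1 ligand cluster on chromosome 2 (Il1f8, Il1f9, Il1f6, Il1f5, Il1f10 and Il1rn) held 4 control and 2 H1C regions for its 6 genes, none of them at a member's end. Il4, Il13 and Il5, the type 2 cytokine cluster on chromosome 11, had 7 control and 4 H1C regions, and its strongest region away from gene ends, 38872 bp from Il5, had pileups of 85 and 46. No control region lay anywhere in the window at 7 ligands (Il6, Il7, Il13, Il19, Il1f6, Il1f8 and Il1f9) and 3 receptors (Il11ra2, Il13ra2 and Il1rapl2). That is 17.9% of ligands and 7.32% of receptors, against 21.8% of all protein-coding genes. Il11ra2 is a near-identical copy of Il11ra1, so reads of the pair may not have been assigned to either.

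H1C regions with no control counterpart were few and weak. In all, 104 H1C regions lay in member windows and 10 of them overlapped no control region (9.62%), against 15.0% of all H1C regions. None of the 10 lay at a gene end, and their pileups were 15 to 27. They lay in the windows of Il2ra, Il12a, Il22ra1, Il11, Il17c, Il10ra, Il22ra2, Il3 and Il17b, and 1 lay between Il1rl2 and Il1rl1. The highest, with a pileup of 27, was 30549 bp from Il10ra, and another, with 26, was 3294 bp from Il2ra.

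A list of 32 other genes of these pathways held kinases, adaptors, signal transducers, feedback inhibitors and related receptors and ligands outside the Il symbols. Of these, 24 had a control gene-end region (75%, against 46.9% of all genes), 19 of these were called in both libraries (79.2%, 57.8 to 92.9, against 71.0% of all genes), 5 in control only and 1 in H1C only. Those called in both with the highest control fold were the signal transducers Stat2 (pileups of 88 and 48) and Stat3 (107 and 69), the IL-1 receptor kinases Irak2 (69 and 35) and Irak4 (63 and 45), and the Janus kinase Jak1 (57 and 28). The control-only genes were Myd88, Socs2, Csf2rb, Csf2rb2 and Ebi3. Myd88, the adaptor of IL-1 family receptors, had a control pileup of 101, and an H1C region with a pileup of 56 overlapped it just outside the window. Csf2rb, the beta chain shared by IL-3 and IL-5 receptors, had 32 and its close copy Csf2rb2 had 20, and the split of reads between the pair is uncertain. Socs2, a feedback inhibitor, had 34, and Ebi3, a subunit of IL-27, had 24. Irak3, an inhibitor of IL-1 signalling, was the H1C-only gene, with a pileup of 16.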

How the data were processed

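ATAC-seq libraries of control and H1C hematopoietic stem cells, 1 per group, were analysed from the accessible regions the authors deposited for each library. MACS2, featureCounts, Picard, Bowtie2 (2.2.9) and Trim Galore (0.4.4) are named, with build mm10, per the submitters' processing notes. The settings, the removal of duplicates and any shift of reads to the cut position, all of which could alter pileups and summits, are not given in the sources used here. The deposited fold is a ratio of summit pileup to local background, each with 1 added. The deposited −log10 p and q values and the deposited score are the peak caller's, and column 10 of the deposited lists gives the summit's offset in bp. The lists give no read totals, so depth was taken from the genome background.

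A whole-number pileup reproduced both deposited values, to a relative 0.0001, for 32005 of 32005 control and 13156 of 13156 H1C regions. The solver recovered 100% of 2937 pileups on simulated data. Regions were called per library and were shared when at least 1 bp overlapped. Strand and starts came from the RefSeq promoter table, and gene spans from the RefSeq gene table (GRCm38).

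The named genes were all members with a gene-end region, the 5 ligands and 5 receptors with the most distal control regions (ties in alphabetical order), members with an H1C-only region, Il2rg, Il6st and Il7r, and up to 5 signalling genes per status by fold. Members and lists were chosen with earlier results of these data known. A marker of the stem cell list is not reported here. Computation used scipy 1.17.1, pandas 2.3.3 and numpy 2.4.6 under Python 3.11.15, and drawing matplotlib 3.10.9.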

Additional observations from a re-analysis of the deposited data

How the results depend on the processing

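No paired analysis was possible because there was 1 library in each group. The 13 results were recomputed under 59 alternatives: 34 stayed within the interval, the quartiles or 1.5 times the reported value, and 25 moved. Only the median log2 ratio could change sign, since the other results are counts, shares or folds, and 0 of its alternatives did so. The cause of the moves was not tested. The alternatives that count regions at no gene end, or genes whose strongest region is at no other gene end, were chosen after seeing the data. Ligands with a control gene-end region numbered 2 of 39 within 500 bp, 9 within 2500 bp and 2 in lists of equal length. In the same order receptors numbered 20, 25 and 13 of 41, and all protein-coding genes 9649, 11399 and 8254 of 21883. In lists of equal length 56.25% of members were called in both (9 of 16), against 84.1% of all genes. Distal control regions at ligands and receptors numbered 37 and 60 with 10 kb flanks, 171 and 205 with 100 kb flanks, 36 and 65 where the member was the nearest gene, and 44 and 54 in lists of equal length; away from gene ends ligands had 66. The share of distal regions overlapped in H1C was 21.6% at ligands with 10 kb flanks, 13.9% and 24.6% where the member was the nearest gene, 68.2% and 57.4% in lists of equal length, and 15.2% and 25% at no gene end. The share over all control regions was not computed for lists of equal length. In lists of equal length the median fold was 5.47 at ligand ends, 7.23 at distal ligand and 6.00 at distal receptor regions. The median log2 ratio was -0.43 with the local background. No region could be dropped as high-copy, since 0 of the shared member regions were. Lists of equal length leave out the control regions with the weakest p-values, and read depth is not in the lists.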
